A study of Oryza sativa Japonica Group with 8 samples.

Results

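Core histones are the small basic proteins, H2A, H2B, H3 and H4, around which nuclear DNA is wound to form nucleosomes. Most core histone transcripts of plants are made while a cell copies its DNA, so that new chromatin can be packed, and H3 also exists as replacement forms made outside that phase. Plant genomes hold many nearly identical histone gene copies. Each copy is a separate locus with its own transcript level.

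The genes described here are 4 core histone loci of rice that the authors of the study called lower in a dcl3b knockdown: LOC_Os08g38300 and LOC_Os05g02300, each described in the files only as carrying the core histone H2A/H2B/H3/H4 domain, and LOC_Os06g06510 and LOC_Os04g34240, described as histone H3. They are 4 of 1174 genes the files list as changed, and 4 of the 530 listed as lower. They were selected on the authors' fold change and adjusted p for these same libraries and on their levels in replicate 2, so their differences between genotypes are given as a description and were not tested. The files also list 2 further histone H3 genes as lower, LOC_Os05g36280 and LOC_Os06g06460, and no histone gene as higher. The locus identifiers place the 4 genes on chromosomes 8, 5, 6 and 4. None of the 6 identifiers was found in the RefSeq gene table at hand (0 matches), so no sequence or genome position is given.

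The tissue was young panicles, taken before heading from field-grown Oryza sativa japonica plants. The knockdown plants, labelled dcl3b knockdown mutant, have reduced expression of OsDCL3b, a Dicer-like enzyme that trims long duplex RNA to small interfering RNAs (siRNAs), and were set against wild type plants. Messenger RNA was sequenced with a strand-specific kit in 3 knockdown and 3 wild type libraries. Each genotype also had 1 small RNA library. The labels do not state how the knockdown was made, how many plants entered a library or whether replicates came from separate plants, so the spread between replicates may be technical. Levels are FPKM, read fragments scaled to transcript length and library depth, as the authors deposited them.

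The targeted gene, LOC_Os10g34430, averaged 0.443 ± 0.0551 FPKM in knockdown libraries and 0.943 ± 0.0551 FPKM in wild type libraries (SD, n = 3 each), with no overlap. The depth of the mRNA libraries is not given in the files, and genes outside the lists were not analysed here. The lists hold genes that changed at least 2-fold, on the authors' log2 scale 1 or more in either direction, with an FDR (adjusted p) no higher than 0.05. Of 12 floral MADS-box genes that mark young panicles, 0 were among the listed genes, which says nothing of their level, since only changed genes were held. Of 22 anther and tapetum genes, 12 were listed and none of those was at 0 in every library.

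All 4 histone genes averaged 0.408 to 0.458 of the wild type level in the knockdown, yet in none of them did the genotypes separate. The levels of the 4 genes were low in knockdown libraries 1 and 3 and high in wild type libraries 1 and 3. In replicate 2 of both genotypes they lay between. Replicate 2 of the knockdown was above replicate 2 of wild type for all 4 genes.

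LOC_Os08g38300, the most abundant of the 4, had 19.25, 29.16 and 14.56 FPKM in knockdown replicates 1, 2 and 3, against 53.71, 26.70 and 71.96 FPKM in wild type replicates 1, 2 and 3. Wild type replicate 2 therefore lay below knockdown replicate 2 and the groups overlapped. The means were 20.99 ± 7.45 FPKM in the knockdown and 50.8 ± 22.8 FPKM in wild type (SD, n = 3 each). On the log2(FPKM + 0.5) scale the difference, knockdown minus wild type, was -1.20 with a standard error of 0.506. The authors' deposited table gave a log2 fold change of -1.27 and an adjusted p of 0.000978.

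LOC_Os05g02300, the other gene described by its core histone domain, had 9.46, 13.86 and 5.99 FPKM in the knockdown, against 23.69, 12.49 and 31.47 FPKM in wild type. The same library was highest, wild type replicate 3, and the same library lowest, knockdown replicate 3, as for LOC_Os08g38300. Its means were 9.77 ± 3.94 FPKM in the knockdown and 22.55 ± 9.54 FPKM in wild type (SD, n = 3 each), a log2 difference of -1.15 with a standard error of 0.507. In the authors' deposited table its log2 fold change was -1.20 and its adjusted p 0.00469.

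LOC_Os06g06510, an H3 gene, had 5.55, 10 and 5.82 FPKM in the knockdown, against 17.20, 7.94 and 21.51 FPKM in wild type. It was the gene of the 4 in which knockdown replicate 1 rather than replicate 3 was lowest, at 5.55 against 5.82 FPKM. The means were 7.12 ± 2.49 FPKM in the knockdown and 15.55 ± 6.93 FPKM in wild type (SD, n = 3 each), and the log2 difference was -1.01 with a standard error of 0.490. The authors' deposited table listed a log2 fold change of -1.12 and an adjusted p of 0.0141.

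LOC_Os04g34240, the other H3 gene and the least abundant of the 4, had 1.51, 1.99 and 1.20 FPKM in the knockdown, against 4.63, 1.56 and 5.32 FPKM in wild type. Here wild type replicate 2 lay just above knockdown replicate 1 and below knockdown replicate 2. The means were 1.57 ± 0.398 FPKM in the knockdown and 3.84 ± 2.0 FPKM in wild type (SD, n = 3 each), a log2 difference of -0.95 with a standard error of 0.498. Its deposited log2 fold change was -1.28, the largest in size of the 4 in the authors' deposited table, with the highest adjusted p, 0.0173.

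**Figure D1:**
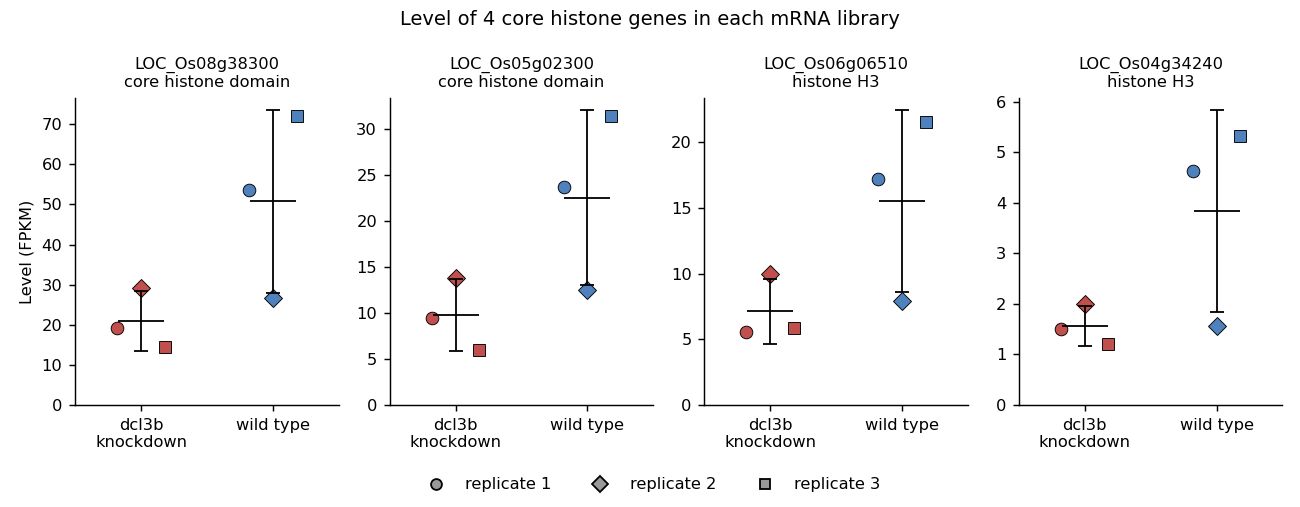
Level in FPKM (vertical axes, each from 0) of the 4 core histone genes in knockdown (left) and wild type (right) libraries, with symbols for the replicate number and the mean ± SD of 3 libraries in black. In every panel the diamond of knockdown replicate 2 is the highest of the knockdown and lies above the diamond of wild type replicate 2, the lowest point of its group.

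The fold changes of the 4 genes were near the median of lowered genes with a mean of at least 1 FPKM. Their separation by genotype was unlike that of most lowered genes. The 4 were chosen partly on their replicate 2 levels, so their lack of separation is bound to that choice. Over all 530 genes listed as lower the authors' deposited table had a median log2 fold change of -1.44, while the 4 lay between -1.12 and -1.28. Over the 286 of these genes that averaged at least 1 FPKM, the 4 included, the median was -1.26. By adjusted p the 4 stood at positions 212, 279, 366 and 381 of 530, counted from the smallest. Genes listed as lower made up 45.1% of the listed genes, a share that says nothing of the 4, since the same call chose them. Of the 530, 472 (89.1%) had the knockdown libraries entirely below the wild type libraries, and of the 4 histone genes 0 did. Of the 286 that averaged at least 1 FPKM, the 4 included, 240 (83.9%) did. Without knockdown replicate 2, or without wild type replicate 2, all 4 separated, as did 98.9% and 99.2% of the 530.

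The other 2 listed H3 genes showed the same pattern of libraries. LOC_Os05g36280 had 17.64, 26.60 and 15.66 FPKM in the knockdown, against 45.84, 21.83 and 60.24 FPKM in wild type. LOC_Os06g06460 had 7.16, 9.86 and 5.55 FPKM in the knockdown, against 16.99, 8.69 and 22.67 FPKM in wild type. Both again had knockdown replicate 2 above wild type replicate 2, and their log2 fold change was -1.09 each in the authors' deposited table, the nearest of the 6 to the limit of 1. Histone genes outside that limit were not analysed here.

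H3 genes of rice resemble each other closely, and the sources used here do not say how reads that match several copies were counted. The levels of the 4 H3 genes may therefore share reads, and these genes are not independent measurements. LOC_Os06g06510 and LOC_Os06g06460 are both on chromosome 6 by their identifiers.

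The 4 genes kept the same order of level in all 6 libraries, LOC_Os08g38300 first, then LOC_Os05g02300, LOC_Os06g06510 and LOC_Os04g34240. Because FPKM is scaled to transcript length, levels can be set side by side between genes. LOC_Os05g02300 and LOC_Os06g06510 were the closest neighbours, at 5.99 and 5.82 FPKM in knockdown replicate 3; LOC_Os05g02300 was the higher in 6 of 6 libraries, while the ranges over libraries overlapped in both genotypes. LOC_Os08g38300 and LOC_Os05g02300 overlapped in wild type but not in the knockdown, where the lowest value of LOC_Os08g38300 was 14.56 FPKM and the highest of LOC_Os05g02300 was 13.86 FPKM. LOC_Os06g06510 and LOC_Os04g34240 overlapped in neither genotype.

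Between libraries the summed level of the 4 genes changed far more than the share each gene took of it. The sum was 35.77, 55.01 and 27.57 FPKM in the knockdown, against 99.23, 48.69 and 130.26 FPKM in wild type, a 4.72-fold range over the 6 libraries. LOC_Os08g38300 took 53.2 ± 0.532% of the sum in the knockdown and 54.7 ± 0.565% in wild type (SD, n = 3 each). LOC_Os05g02300 took 24.5 ± 2.45% in the knockdown and 24.6 ± 0.955% in wild type. LOC_Os06g06510 took 18.3 ± 2.80% in the knockdown and 16.7 ± 0.543% in wild type. LOC_Os04g34240 took 4.06 ± 0.392% in the knockdown and 3.98 ± 0.736% in wild type. For LOC_Os05g02300, LOC_Os06g06510 and LOC_Os04g34240 the shares of the genotypes overlapped, whereas the share of LOC_Os08g38300 was lower in every knockdown library than in any wild type library.

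The ratios between genes gave the same picture. The level of LOC_Os08g38300 was 2.03 to 2.43 times that of LOC_Os05g02300 over the 6 libraries, 2.5 to 3.47 times that of LOC_Os06g06510 and 11.6 to 17.1 times that of LOC_Os04g34240. Pearson correlations between the 4 genes over the 6 libraries ran from 0.954 to 0.995 on the log2 scale. Within genotypes, after each genotype's mean was taken out, they ran from 0.911 to 0.989. Each pair shares its libraries and their scaling, and the members were listed for the same contrast, so the values describe these libraries only.

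The genotypes were also compared between libraries of the same number. For LOC_Os08g38300 the knockdown level was 0.358 of wild type in replicate 1, 1.09 times wild type in replicate 2 and 0.202 of wild type in replicate 3. In replicate 2 the ratio, knockdown over wild type, was 1.11 for LOC_Os05g02300, 1.26 for LOC_Os06g06510 and 1.28 for LOC_Os04g34240. In replicate 1 these 3 genes stood at ratios of 0.323 to 0.399, and in replicate 3 at 0.190 to 0.271. The number is only a name here, since the labels do not say that libraries of the same number share a plant or a day.

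**Figure D2:**
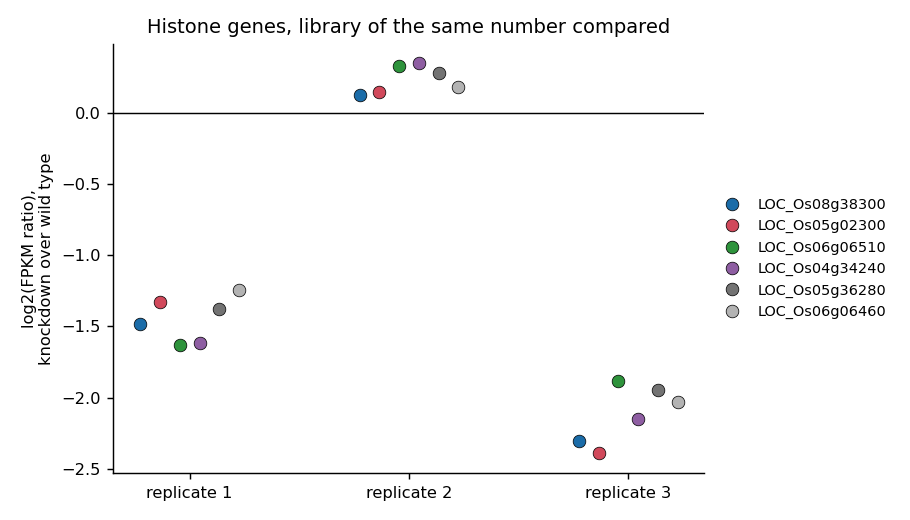
Log2 ratio of FPKM, knockdown over wild type (vertical axis), of the 6 listed histone genes for libraries that carry the same replicate number (horizontal axis), 1 point per gene. The ratios of replicate 2 lie above 0, from 0.13 to 0.35, and those of replicates 1 and 3 below it, from -1.25 to -2.39.

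Wild type replicate 2 stood further from its group than knockdown replicate 2 did from its own. For LOC_Os08g38300 wild type replicate 2 was at 0.425 of the mean of wild type replicates 1 and 3, for LOC_Os05g02300 at 0.453, for LOC_Os06g06510 at 0.410 and for LOC_Os04g34240 at 0.314. Knockdown replicate 2 was at 1.72, 1.79, 1.76 and 1.47 times the mean of knockdown replicates 1 and 3 in the same order of genes. With both replicates numbered 2 left out, an alternative added after the data were seen, the ratio of means, knockdown over wild type, was 0.269 to 0.294 for the 4 genes, against 0.408 to 0.458 with all libraries.

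Set among the 286 genes listed as lower that averaged at least 1 FPKM over the 6 libraries, which include all 4, the histone genes were near the extreme in wild type and near the middle in the knockdown. The log2 distance of wild type replicate 2 from the mean of wild type replicates 1 and 3 was -1.20 for LOC_Os08g38300, -1.10 for LOC_Os05g02300, -1.23 for LOC_Os06g06510 and -1.41 for LOC_Os04g34240, where the median gene had -0.36 and the 5th percentile was -1.14. The same distance of knockdown replicate 2 was 0.43 to 0.84 for the 4, against a median of 0.58. The spread among wild type libraries, as the SD of log2 values, was 0.665 to 0.818 for the 4 and 0.267 for the median gene. In the knockdown it was 0.276 to 0.573 for the 4 and 0.412 for the median gene. Because the 4 were chosen partly on their replicate 2 levels, their place among the 286 is a description only.

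**Figure D3:**
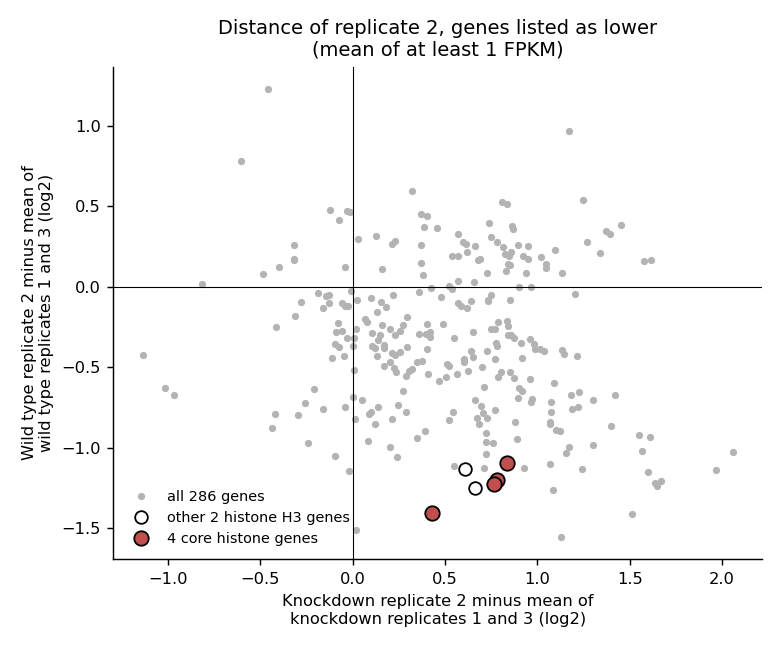
Each point is a gene listed as lower with a mean of at least 1 FPKM (286 genes), placed by the log2 distance of replicate 2 from the mean of replicates 1 and 3 in the knockdown (horizontal axis) and in wild type (vertical axis). The 4 core histone genes, chosen partly on replicate 2, lie at -1.10 to -1.41 on the wild type axis, far below the median of -0.36. On the knockdown axis they lie at 0.43 to 0.84, around the median of 0.58.

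This order of libraries was shared with some other lowered genes. In 6 of 6 histone genes wild type replicate 2 had the lowest wild type value, knockdown replicate 2 had the highest knockdown value, and the second exceeded the first. The same held in 42 (8.02%) of the other 524 genes listed as lower. Among the 286 lower genes with a mean of at least 1 FPKM, the histone genes included, it held in 41 (14.3%). Since replicate 2 levels helped to choose the 4, the comparison with the 524 is a description only. The full order, from knockdown replicate 3 at the low end through knockdown replicate 1, wild type replicate 2, knockdown replicate 2 and wild type replicate 1 to wild type replicate 3, was found in 3 of the 4 histone genes and in 24 (4.58%) of the 524. Of the 286, again with the histone genes included, 26 (9.09%) had the full order. Among the 42 genes, 6 were lipid transfer protein genes of the LTPL class, of 14 in the lowered list. The class was picked out after its values were seen.

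The described genes whose profile over the 6 libraries was most like the mean of the 4, by Pearson correlation of log2(FPKM + 0.5) among listed genes with a mean of at least 1 FPKM, were led by the other 2 H3 genes, LOC_Os06g06460 at 0.998 and LOC_Os05g36280 at 0.997. Next came LOC_Os05g48640 at 0.993, described as ROPGEF7, one of the exchange factors that switch on ROP GTPases. It had 0.55, 1.21 and 0.47 FPKM in the knockdown, against 2.15, 1.01 and 2.80 FPKM in wild type. LOC_Os11g06820, a transmembrane amino acid transporter gene, had a correlation of 0.992. Its level was 2.61, 4.11 and 1.88 FPKM in the knockdown, against 6.86, 2.94 and 7.88 FPKM in wild type. In both genes knockdown replicate 2 lay above wild type replicate 2, as in the histone genes.

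The other 6 were of mixed description. The beta-expansin gene LOC_Os04g44780 and the expansin gene LOC_Os03g21820, whose products loosen the cell wall, had correlations of 0.989 and 0.976. LOC_Os02g56920, described as WAX2, a name for proteins of cuticle wax synthesis, had 0.983. The beta-expansin gene had 2.26, 3.81 and 2.11 FPKM in the knockdown, against 6.47, 3.61 and 7.41 FPKM in wild type. LOC_Os02g56920 had 2.83, 6.05 and 2.44 FPKM in the knockdown, against 8.82, 4.38 and 11.27 FPKM in wild type. The remaining 3 of the 6 were the potassium channel gene LOC_Os07g01810 (0.983), the WD-repeat gene LOC_Os01g13140 (0.980) and the lipid transfer protein gene LOC_Os10g36160 (0.976).

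High correlations were common among lowered genes, which share the contrast between genotypes. Of the 286 genes, 41 (14.3%) reached a correlation of 0.95 with the mean profile, the 4 included, and the median gene had 0.833. Within genotypes, 25 of the 286 reached 0.95, and the median was 0.626. These correlations describe 6 libraries with shared scaling, and by rank alone 23 of the listed genes outside the 4 with a mean of at least 1 FPKM had the same order of libraries as the mean profile.

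Other genes of DNA replication and cell division were sought by keyword in the descriptions. No listed gene was described as a linker histone or HMG protein, as a histone-modifying enzyme or as an E2F or DP factor. LOC_Os01g65850, described as the CHD3-type remodelling factor PICKLE, was lower but barely measured, at 0.02, 0.03 and 0.01 FPKM in the knockdown, against 0.08, 0.07 and 0.10 FPKM in wild type. The replication keywords found 2 genes, both described as DNA topoisomerase IV subunit A and both lower, and no polymerase, MCM or PCNA gene. LOC_Os03g57000 had 0.32, 0.71 and 0.42 FPKM in the knockdown, against 1.09, 1.37 and 1.56 FPKM in wild type, and LOC_Os03g56490 had 0.46, 1.04 and 0.98 FPKM, against 1.37, 1.90 and 2.02 FPKM. In neither did wild type replicate 2 have the lowest wild type value.

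Keywords for cyclins and cyclin-dependent kinases, many of which drive steps of the cell cycle, found 6 of the listed genes, all lower. In all 6 the genotypes did not overlap (89.1% of all lowered genes). Their levels were low. LOC_Os10g06800, described as cyclin-dependent kinase G-2, had 0.43, 0.45 and 0.43 FPKM in the knockdown, against 0.77, 1.33 and 0.99 FPKM in wild type. The cyclin gene LOC_Os02g39430 had 0.13, 0.07 and 0.22 FPKM in the knockdown, against 0.82, 0.36 and 0.55 FPKM in wild type. Summed, the 6 genes stood at 0.83, 1.13 and 0.97 FPKM in the knockdown, against 3.08, 3.23 and 2.90 FPKM in wild type, with wild type replicate 2 the highest. That rested on LOC_Os10g06800: without it the sums of wild type replicates 1, 2 and 3 were 2.31, 1.90 and 1.91 FPKM. Wild type replicate 2 had the lowest wild type value in 2 of the 6 genes. The other 4 were LOC_Os02g39260, LOC_Os02g39230, LOC_Os02g39240 and LOC_Os03g11040, with log2 fold changes of -1.55 to -2.30 in the authors' deposited table.

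Of genes found by mitosis and cytokinesis keywords, 3 were lower and 4 higher, and the 4 were centromere-specific retrotransposons, which the word centromere caught: LOC_Os01g62140, LOC_Os06g19350, LOC_Os07g38200 and LOC_Os08g22690. The 3 lower genes were the kinesin motor genes LOC_Os12g39980 and LOC_Os09g25380 and LOC_Os06g47880, described as a cell division control protein 2 homolog. LOC_Os06g47880 was not caught by the cyclin and cyclin-dependent kinase keywords and is not in their sum. LOC_Os12g39980 had 0.48, 0.62 and 0.35 FPKM in the knockdown, against 1.33, 0.80 and 1.21 FPKM in wild type, and LOC_Os09g25380 had 0.14, 0.26 and 0.16 FPKM, against 0.40, 0.27 and 0.47 FPKM. Both kinesin genes had replicate 2 of each genotype nearest to the other genotype, but the genotypes did not overlap: the highest knockdown values were 0.62 and 0.26 FPKM, against lowest wild type values of 0.80 and 0.27 FPKM. LOC_Os06g47880 had 0.10, 0.07 and 0 FPKM in the knockdown, against 0.26, 0.34 and 0.67 FPKM in wild type. In that gene replicate 2 of neither genotype was nearest to the other genotype. Of 3 listed ribosomal protein genes, LOC_Os07g33997 and LOC_Os07g28710 were lower and LOC_Os01g67200 was higher.

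**Figure D4:**
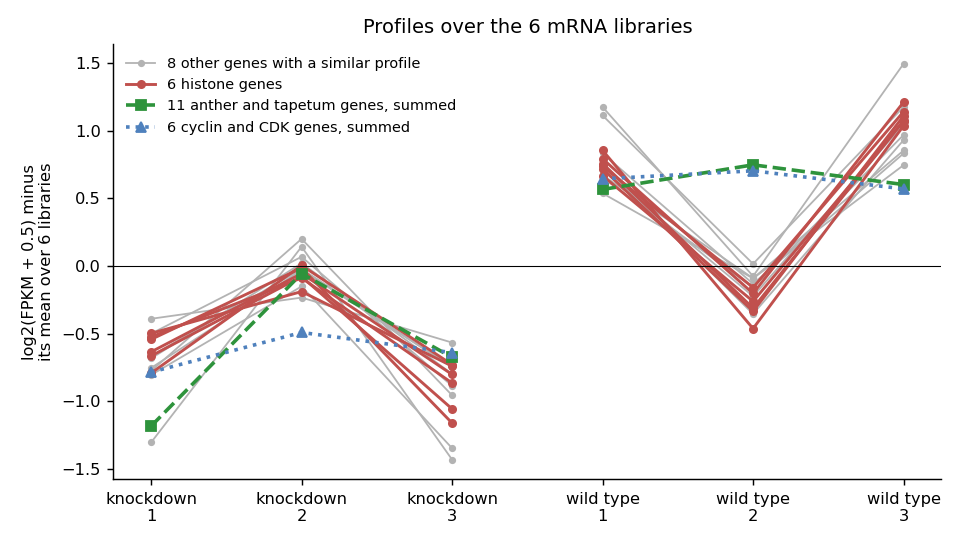
Log2(FPKM + 0.5) minus its mean over the 6 libraries (vertical axis), for knockdown replicates 1 to 3 (left) and wild type replicates 1 to 3 (right): each of the 6 histone genes, the 8 other described genes most like them, and the summed level of 11 anther and tapetum genes and of 6 cyclin and cyclin-dependent kinase genes. In wild type replicate 2 the histone genes fall to their lowest wild type level (26.70 FPKM for LOC_Os08g38300), while the anther sum (2085 FPKM) and the cyclin sum (3.23 FPKM, with LOC_Os10g06800 at 1.33 FPKM) do not; single genes differ from the sums, with wild type replicate 2 the lowest in 4 of 11 anther genes and 2 of 6 cyclin and kinase genes.

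Anther and tapetum genes were measured in the same libraries. Of the 12 listed anther and tapetum genes, 11 were lower, and their summed level was 547, 1195 and 778.0 FPKM in the knockdown, against 1838, 2085 and 1885 FPKM in wild type. Knockdown replicate 2 had the highest knockdown value in all 11, as in the histone genes, and wild type replicate 2 had the lowest wild type value in 4 of the 11. Over all 530 lowered genes these shares were 67.2% and 54.9%. The order of the sums differed from that of the histone genes, with knockdown replicate 1 the lowest of the anther sums and wild type replicate 2 the highest. The member listed as higher, LOC_Os01g70440, had 330.90, 111.89 and 611.12 FPKM in the knockdown, against 97.32, 157.39 and 22.08 FPKM in wild type. Its order of libraries was the reverse of the full order given above for histone genes, and the genotypes overlapped at replicate 2. The only photosynthesis gene listed, the chlorophyll A-B binding protein gene LOC_Os01g64960, was also higher, at 49.43, 29.49 and 69.67 FPKM in the knockdown, against 25.15, 23.00 and 11.43 FPKM in wild type, with knockdown replicate 2 again nearest to wild type. The part of these tissue markers in the histone levels was not tested. In whole panicles, fewer cells of a type and less RNA per cell cannot be told apart.

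Small RNA windows that the authors listed as changed, from 1 small RNA library per genotype, did not name any of the 6 histone loci. The share of all genes that such windows name was not computed, so this absence is not read as a trait of the histone loci. The authors listed 11 windows of 500 bases for 21-nt siRNA and 113 for 24-nt siRNA, of which 8 and 92 named a gene. Windows outside those lists were not analysed here.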

How the data were processed

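Messenger RNA of young panicles was compared between 3 dcl3b knockdown and 3 wild type libraries, grouped by the samples' titles. Trizol extraction, DNA removal and stranded mRNA and small RNA kits were used, per the labels' protocols. The tools named in the submitters' processing notes, with no role stated, were edgeR, Bowtie 1.1.2 and TopHat2 2.1.0. The sources used here do not give the build, the annotation, the filters or the treatment of reads with several matches.

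Called genes have FPKM per library, deposited by the authors and rounded to 2 decimals. Each gene has the authors' log2 fold change (knockdown over wild type), p-value and FDR, also deposited. For the 4 histone genes that fold change lay up to 0.0142 from the log2 ratio of FPKM means, so its base is taken as 2. The authors deposited small RNA windows as a signal in RPTM, searched here for histone loci. Depth of the mRNA libraries could not be read from the low FPKM values, and no counting interval is given.

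From FPKM, means, SDs, ratios and differences of log2(FPKM + 0.5) with standard errors were computed in Python 3.11.15 with pandas 2.3.3 and NumPy 2.4.6. That scale understates the change of low genes. No test was run on the histone genes, since the authors' call on the same libraries chose them. The 4 genes and the 12 gene lists were chosen with earlier results of these data known, and locus IDs in the lists were unchecked. Named genes were the 4, the other core histone genes, up to 6 genes per keyword list by absolute fold change, the 10 described genes with the most similar profile, and the targeted gene; LOC_Os09g25380, beyond the 6 of its list, was named after its values were seen; members of the anther list were named only where a result turned on them. The profile correlation was tested on simulated data. Alternatives were pseudocounts of 0.1 and 1, each library left out, a replicate block, no minimum level and rank correlation.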

Additional observations from a re-analysis of the deposited data

How the results depend on the processing

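With any 1 library left out, the log2 difference, knockdown minus wild type, ran from -1.60 to -0.89 for LOC_Os08g38300, from -1.51 to -0.85 for LOC_Os05g02300, from -1.42 to -0.73 for LOC_Os06g06510 and from -1.42 to -0.67 for LOC_Os04g34240, and no sign changed. With both replicates numbered 2 left out, chosen after seeing the data, the differences were -1.86, -1.79, -1.67 and -1.56 in the same order, and 4 of the 4 genes separated by genotype. The number of the 4 that separated was 0 to 4 with 1 library left out, 4 without either replicate 2 and 0 otherwise; for all lowered genes the share ran from 89.1% to 99.2%. The cause was not tested. Pseudocounts of 0.1 and 1 moved each difference by less than 1 SD between replicates. Same-numbered libraries did not deviate in the same direction (correlations of -0.04, -0.53 and -0.43 over 1174 genes for numbers 1, 2 and 3). These genes were all called for the same contrast, so the correlations cannot show whether the numbers pair the samples. With a replicate block the differences stayed at -1.20, -1.15, -1.01 and -0.95, and their standard errors were 0.702, 0.709, 0.667 and 0.624. Of the 10 genes with the most similar profile, 6 to 9 were kept with 1 library left out, 8 and 10 with pseudocounts of 0.1 and 1, 5 with no minimum level and 1 by Spearman correlation, where 23 genes tied at 1. The unknown depth leaves the counting error of LOC_Os04g34240, at 1.20 to 5.32 FPKM, unstated.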

Other observations

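Some genes listed as higher mirrored the histone profile. Genes listed as higher with a mean of at least 1 FPKM numbered 257. Of these, 26 (10.1%) had a correlation of -0.95 or less with the mean profile of the 4 histone genes over the 6 libraries. The median was -0.839, and all of these genes share the contrast between genotypes, with the opposite sign. Within genotypes, 6 of the 257 were at -0.95 or less, and the median was -0.651. The described genes with the most negative values, picked after they were seen, were a transporter family gene, LOC_Os11g41850 (-0.980), and a peroxidase gene, LOC_Os06g46799 (-0.977). LOC_Os11g41850 had 10.42, 7.74 and 11.76 FPKM in the knockdown, against 3.88, 6.56 and 2.53 FPKM in wild type. LOC_Os06g46799 had 15.04, 9.91 and 17.26 FPKM in the knockdown, against 6.12, 9.13 and 3.96 FPKM in wild type. In both, replicate 2 of each genotype was nearest to the other genotype, and the groups did not overlap. Next came LOC_Os06g12320 (-0.974), LOC_Os10g39840 (-0.974) and LOC_Os01g11620 (-0.972), in which the groups did overlap. In LOC_Os06g12320 knockdown replicate 2 had 24.04 FPKM and wild type replicate 2 had 25.64 FPKM.

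A 24-nt siRNA window on chromosome 5, from 13751500 to 13751999 in the authors' coordinates (build not given in the sources used here), lay in LOC_Os05g23910, described as a histone-like transcription factor and archaeal histone, which is not a core histone by its description. Its signal was 20.38 RPTM in the knockdown library and 121.93 RPTM in the wild type library, 1 library each. This gene was not among the genes listed as changed in mRNA.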
